A study of Caenorhabditis elegans with 4 samples.

Results

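Chains of closely spaced RNA polymerase II regions are described here in early embryos of *Caenorhabditis elegans*. A chain is a row of 5 or more listed regions on 1 chromosome in which each gap to the next region is 1000 bp or less. By this rule 1324 of the 8121 listed regions (16.3%) lay in chains, and they formed 204 chains. Another 2946 regions had no neighbour within 1000 bp, and 3851 lay in runs of 2 to 4. The members were chosen by the positions of regions that had passed the comparison of ChIP with input, so the same comparison set their positions, widths, q-values and read numbers. The values of chain regions below are therefore descriptions, and chains were not tested against other regions.

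The study mapped polymerase II by chromatin immunoprecipitation and sequencing (ChIP-seq). It had 2 ChIP and 2 input libraries, all from wild-type hermaphrodite strain N2 (the DR subclone of the DB original, with Tc1 pattern I) grown at 20 degrees Celsius to the early embryo stage. The ChIP libraries were made with the mouse monoclonal antibody 8WG16, and the input libraries were DNA without precipitation. The general protocol in the labels speaks of anti-GFP serum and the antibody field of 8WG16. The deposited data are 1 combined list of regions called with PeakSeq on WormBase build WS180, so no value has a replicate error. The whole embryos hold many cell types, and the number of cells with polymerase at a site cannot be told apart from the amount per cell. The depth of the libraries is unknown. The q-value of each region is a p-value corrected for multiple tests. Read numbers recovered from the q-values gave a median of 129 ChIP and 53 input reads per chain region. Fold means the ratio of ChIP to input reads, with the input number as it entered the authors' test.

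Polymerase II makes the messenger RNA of the cell. 8WG16 binds the heptapeptide repeats at the C-terminal end of its largest subunit, AMA-1, with a preference for repeats without phosphate. The *C. elegans* genome is compact, with short distances between many genes, and it has operons, in which neighbouring genes are transcribed together and split by trans-splicing. In early embryos transcription starts in somatic cells, while the germline precursor keeps polymerase II inactive through the protein PIE-1. Which genes underlie the chains was not analysed here, since the gene table at hand belongs to another genome build than the regions, and for the same reason no sequence is shown.

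Most chains were short, and a few ran to more than 10 regions. There were 81 chains of 5 regions, 48 of 6, 31 of 7, 14 of 8 and 16 of 9. Only 14 chains had 10 regions or more, and 1 had 13. The median was 6 regions per chain. The 204 chains were 4.33% of the 4706 runs of any size, single regions included. A run that already had several regions more often had a further one. Of the 4706 runs, 37.4% had a second region, and of the 370 runs with at least 4 regions, 55.1% went on to 5. Of the 204 chains, 60.3% had a sixth region, and of the 75 runs with 7 or more, 58.7% had 1 more. The larger sizes rest on few runs, and the share was 46.7% among 30 runs of 9 or more.

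**Figure D1:**
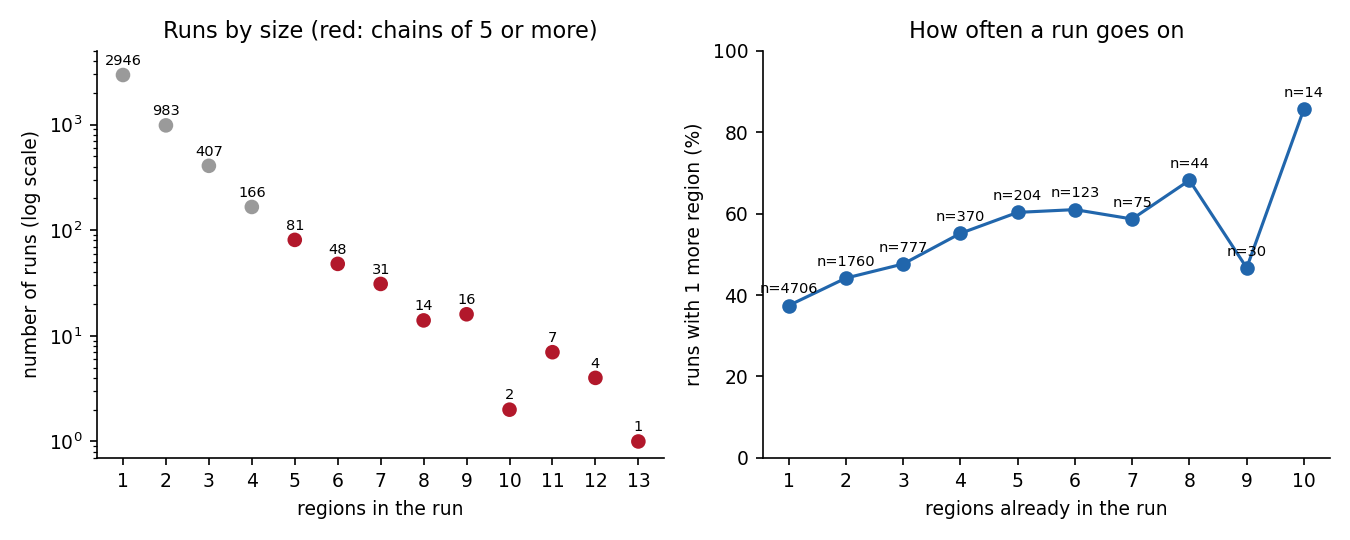
Left, number of runs (log scale) against the number of regions in the run, with chains of 5 or more in red. Right, percentage of runs with at least the given number of regions that had 1 more, with the number of runs above each point. The share went from 37.4% at 1 region to 60.3% at 5 regions. It was irregular from 7 regions on, with 58.7% of 75 runs, 68.2% of 44, 46.7% of 30 and 85.7% of 14.

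The chains were dense stretches of several kb. Their spans ran from 2876 bp to 24.6 kb, and the median was 7964.5 bp (quartiles 5952 and 11017.5 bp). Together they spanned 1811 kb, which was 1.82% of the chromosome spans. Listed regions covered 72.2% of that length, against 7.28% of the chromosome spans. The covered share of single chains ran from 38.5% to 93.9%, with a median of 70.3%. The rule limits the gaps, so a high covered share follows in part from it. The median of the 1120 gaps inside chains was 384 bp (quartiles 270 and 587.25 bp), and 66.2% of them were 500 bp or less. The smallest gap was 200 bp, as in the whole list.

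The limit of 1000 bp did not fall at a break in the distances. In the whole list 160 gaps were over 900 and up to 1000 bp, and 164 were over 1000 and up to 1100 bp. Toward shorter gaps the same width of 100 bp held 237 gaps from 701 to 800 bp and 428 from 401 to 500 bp. The number of chains depended strongly on the limit. A limit of 500 bp left 48 chains with 278 regions, and a limit of 2 kb gave 358 chains with 2575 regions. On the other side of the size limit, 166 runs had 4 regions. Their regions had a median width of 564.5 bp, a median fold of 2.45 and a median −log10 q of 5.49. The regions of the 81 chains of 5 had a median width of 688 bp, a median fold of 2.54 and a median −log10 q of 7.34. Their median spans were 4549 and 6743 bp.

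**Figure D2:**
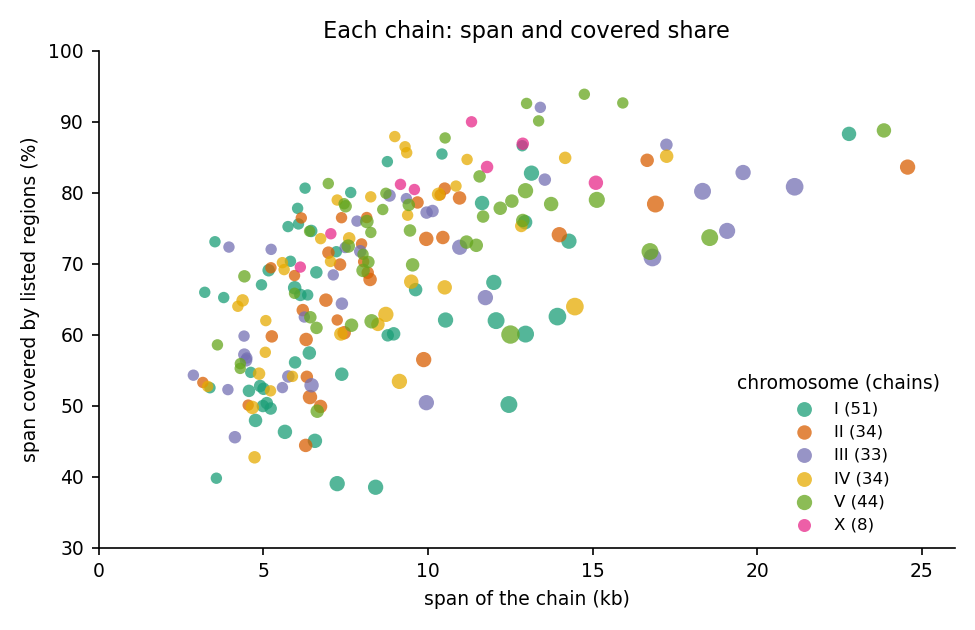
Each point is 1 chain, coloured by chromosome and sized by its number of regions, with its span in kb against the percentage of the span covered by listed regions. Chains over 20 kb were covered to more than 80%, while the least covered chains, near 39%, spanned less than 10 kb.

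The chain with the most regions lay on chromosome V from 1371587 to 1384092, with 13 regions in 12.5 kb. All of them were narrow, from 146 to 1088 bp, and together they covered 60.0% of the span. The first region held 40 ChIP and 17 input reads. The next 3 had folds of 3.42, 2.44 and 2.83. The fifth and the sixth had the highest folds of the chain, 3.78 and 3.65. The lowest, 1.73, belonged to the region after them, which was 723 bp wide. Both large gaps of this chain, 982 and 990 bp, lay in its later part, before its regions 8 and 10. The pooled fold of the chain was 2.59 (95% interval 2.34 to 2.86, counting error only). Its smallest q-value was 3.73e-20, a −log10 q of 19.4. That lay above the upper quartile of chain regions, 16.2, and far below their highest value, 299.8.

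Chains of 12 regions lay on chromosomes III, IV and I, and they differed in how fold ran along them. In the chain of 21.1 kb on chromosome III from 10657056 to 10678192, fold lay between 1.72 and 1.94 in each of the first 6 regions. The other 6, from 10668384 on, had folds of 3.11 to 6.32. The last of them, from 10676182 to 10678192, held 607 ChIP and 96 input reads and had the highest fold of the chain. The fold values of the left and the right 6 regions did not overlap, although the intervals of some narrow regions did. This split was placed after the folds were seen, so the lack of overlap follows in part from its choice. The other chain of 12 on chromosome III, from 12554479 to 12571297, mixed regions of 4003 and 2690 bp with 2 of only 20 and 22 bp. Those of 20 and 22 bp had its highest folds, 5.43 and 9.25, on 7 and 4 input reads. The chain on chromosome IV from 3109740 to 3124202 had folds between 1.67 and 3.90. Its widest region, of 2347 bp, was among its lowest at 1.70. The chain on chromosome I from 441835 to 455767 held a region of 3511 bp at a fold of 3.11. To the left of that region lay 5 regions of 196 to 518 bp, with 4 of the folds between 1.65 and 2.33. The other, of 246 bp, held 64 ChIP and 16 input reads.

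Chains of 11 regions differed in level as well. The one on chromosome III from 2133792 to 2152131 had a pooled fold of 3.95 (3.64 to 4.30), and the one on chromosome V from 16798013 to 16816570 had 3.18 (2.94 to 3.44). The chains on chromosome V from 6473301 and on chromosome I from 13339426 had pooled folds of 2.78 (2.60 to 2.99) and 2.65 (2.42 to 2.90). There were 7 chains of 11 in all. Of the 2 shortest, both on chromosome I, the one from 2167859 had a pooled fold of 3.65 (3.30 to 4.05) and the one from 8106423 had 2.32 (2.14 to 2.52). The intervals of the highest 2 overlapped.

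**Figure D3:**
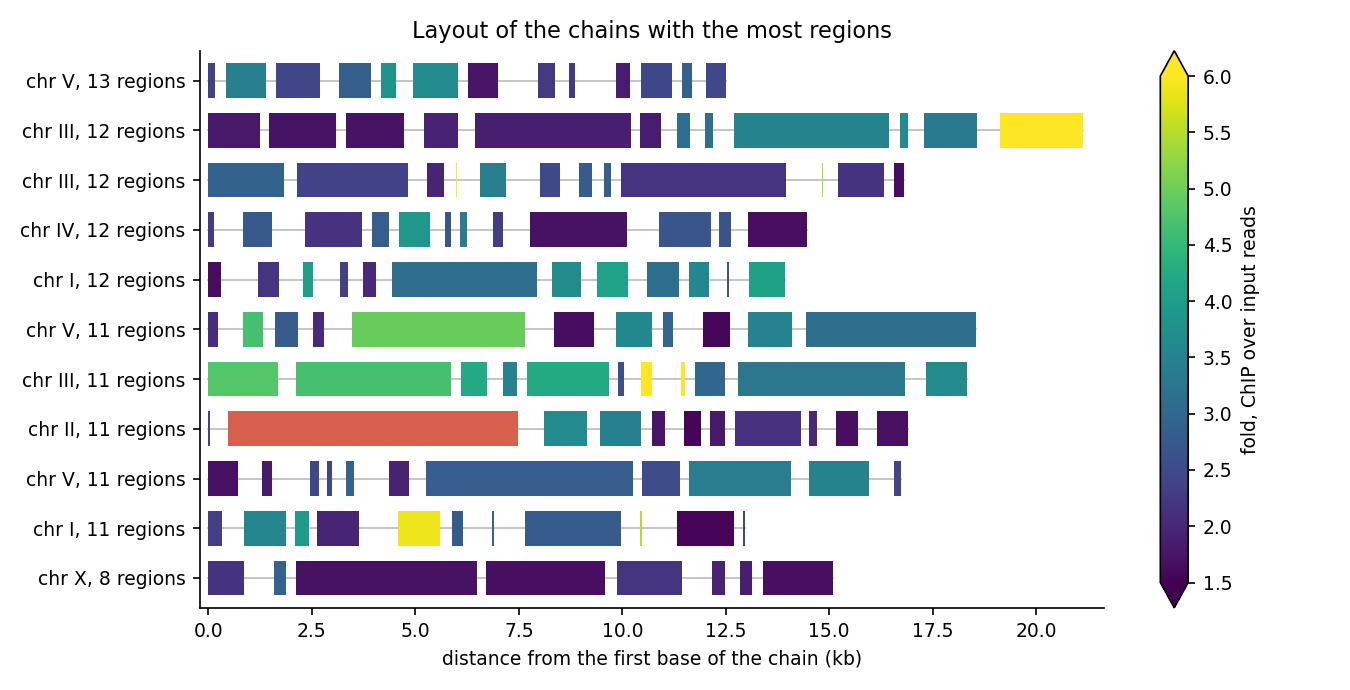
Chains named for their number of regions, drawn from the first base of each chain in kb. Each block is 1 region and its colour is the fold of ChIP over input reads, with colours beyond the ends of the scale held at its end colour, while red marks the region without recovered reads. Gaps are grey lines, and the narrowest regions are drawn slightly wider than they are to stay visible. The second row shows the chain of chromosome III whose first 6 regions had folds below 2 and whose last 6 had folds above 3, and the X chain at the bottom is dark almost throughout.

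The longest chains held broad regions. On chromosome II a chain from 10989417 to 11013984 spanned 24.6 kb with 9 regions. Fold was 1.58 and 1.37 in its first 2 regions and 2.09 and 2.18 in the next 2. It lay between 2.83 and 3.22 in the last 5. Its widest regions, of 6628 and 5467 bp, were its last 2 and lay 224 bp apart. On chromosome V the chain from 13158383 to 13182231 spanned 23.8 kb and held the widest region of the list, of 13431 bp at a fold of 3.09 (2.88 to 3.31). Chromosome I had a chain of 22.8 kb from 11763852 to 11786640, with 8 regions, 88.3% covered and a pooled fold of 2.44 (2.32 to 2.57). A chain of 19.6 kb on chromosome III from 11457514 had a pooled fold of 2.68 (2.52 to 2.84). Width and fold did not go together in every case: a region of 10953 bp on chromosome III from 6837432 to 6848384, the last of a chain of 6, had a fold of 1.91 (1.79 to 2.03).

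Some chains were nearly closed and others mostly open. The most covered, 93.9%, lay on chromosome V from 4498628 to 4513377. It consisted of 1 region of 12190 bp with a sliver of 61 bp on its left and regions of 1222, 189 and 184 bp on its right. The region of 1222 bp had a fold of 8.55 on 282 ChIP and 33 input reads, against 3.15 in the broad region 255 bp away. The next chain began only 1730 bp further on, covered 90.1% of 13.4 kb, and had a lower pooled fold of 2.54 (2.35 to 2.73). The least covered, 38.5%, lay on chromosome I from 14575086 to 14583496. Its 9 regions were 9 to 971 bp wide with folds of 1.76 to 2.69, apart from the region of 9 bp with 31 ChIP and 5 input reads. Another chain of 9 on chromosome I, from 11095024 to 11102267, was covered to 39.0% and included a region of a single base pair with 31 ChIP and 7 input reads.

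Within a chain the covered length was often led by 1 region. The widest region made up a median of 39.0% of the covered length of its chain, with a range of 14.5% to 88.0%. It made up more than 50% in 48 of the 204 chains and less than 25% in 11. Regions of 3 kb or more occurred in 65 chains, or 31.9%. There were 80 such regions, and they held 28.2% of the covered length of chains. Over the whole list, X included, regions of this width were about as frequent inside chains, at 6.04%, as outside, at 5.61%. On the autosomes alone they were somewhat more frequent inside. There 19.9% of 376 such regions lay in chains, against 17.4% of 461 over the whole list. By run size, their autosomal share was lowest in single regions and highest, at 8.86%, in the 14 chains of 10 or more. It did not rise steadily between, with 5.81% in runs of 2 and 5.38% in chains of 7 to 9. Regions under 20 bp made up 2.34% of the chain regions and 3.38% of the others. Gaps beside a region of 3 kb or more had a median of 334 bp (129 gaps), and gaps between narrower regions one of 389 bp (991 gaps).

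The strongest region of a chain, that with the smallest q-value, had no fixed place. It was the first in 32 chains, the last in 37 and an inner region in 135, or 66.2% of the chains. Inner regions were 69.2% of all chain regions, a share in which long chains count more, so these shares are not directly comparable. The widest region was inner in 145 chains. In 136 chains the strongest was also the widest. Inner regions had a median width of 608 bp, a median fold of 2.62 and a median of 132 ChIP reads. End regions had a median width of 597 bp, a median fold of 2.57 and a median of 124 ChIP reads. The strongest listed region of all, on chromosome II from 10059944 to 10066962 (q = 1.55e-300), was the second of a chain of 11. Its read numbers could not be recovered. The next 2 regions had folds of 3.65 and 3.45, and the 7 beyond lay between 1.56 and 2.14. On chromosome IV the region from 8771941 to 8778299 (fold 4.84, interval 4.39 to 5.35) was the second of 5. The one from 3229913 to 3235015 (fold 4.33, 3.95 to 4.75) closed its chain, and the next region began 4107 bp further on. On chromosome I the region from 2821359 to 2827683 (fold 5.24, 4.72 to 5.84) was the third of 8.

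By the lower end of the interval of the fold, regions of 940 to 3019 bp led. They were narrower than the 5 with the smallest q-values but wider than the median chain region of 600.5 bp. At the top stood 1 on chromosome II (13320545 to 13321484), with 379 ChIP and 33 input reads and a fold of 11.5 (8.04 to 16.9). It opened a chain of 7 whose pooled fold of 6.34 was the highest of all chains. Next came 1 on chromosome III (12122159 to 12123565) at 10.5 (7.40 to 15.4). On chromosome IV the region at 3525278 to 3527066 reached 9.06 with 571 ChIP reads over 63 input reads. On chromosome V the region at 18041842 to 18043853 reached 8.98 (6.77 to 12.1), and on chromosome II that at 2242568 to 2245586 reached 7.45 (6.06 to 9.24). The lowest pooled fold of a chain was 1.53, so chains of very unequal enrichment met the same rule. In the middle stood a median of 2.66 with quartiles of 2.28 and 3.16.

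Chain regions were somewhat wider and more enriched than the other 6797 regions. Their median width was 600.5 bp (quartiles 280 and 1194.25) against 491 bp (213 and 998). Their median fold was 2.60 (2.04 and 3.56) against 2.34 (1.93 and 3.01). The quartile ranges overlapped widely. The median q-value was 2.29e-07 in chains and 1.41e-05 outside. Among the strongest 10% of the list were 194 chain regions, 14.7% of all chain regions, and 618 others, 9.09% of theirs. When the 4061 strongest regions were chained anew, chain regions were no wider than the rest (ratio of the medians 0.977) and their median fold was 1.17 times that of the rest.

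The difference in fold was present at each width and on each autosome. On the autosomes, regions under 200 bp had a median fold of 3.28 in chains and 2.81 outside. For widths from 500 bp to under 1 kb the medians were 2.40 and 2.20, and from 1 kb to under 3 kb they were 2.68 and 2.26. For 3 kb or more they were 3.08 in 75 chain regions and 2.59 in 301 others. From 1 kb to under 3 kb the chain regions had a median of 342 ChIP and 131.5 input reads, and the others 314 and 139. By run size, the autosomal median fold was 2.34 for single regions, 2.46 in runs of 4, 2.57 in chains of 5 and 6, 2.69 in chains of 7 to 9 and 2.79 in chains of 10 or more. When autosomal regions were split by fold into 5 groups of equal size, 24.4% of the top group (fold 3.41 or more) lay in chains, against 13.5% of the lowest. By chromosome, the medians inside and outside chains were 2.61 and 2.50 on I, 2.63 and 2.40 on II, and 2.62 and 2.39 on III. They were 2.61 and 2.26 on IV, and 2.73 and 2.34 on V. On the X chromosome they were 1.79 and 1.82, and thus hardly different, with only 45 chain regions in 8 chains.

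**Figure D4:**
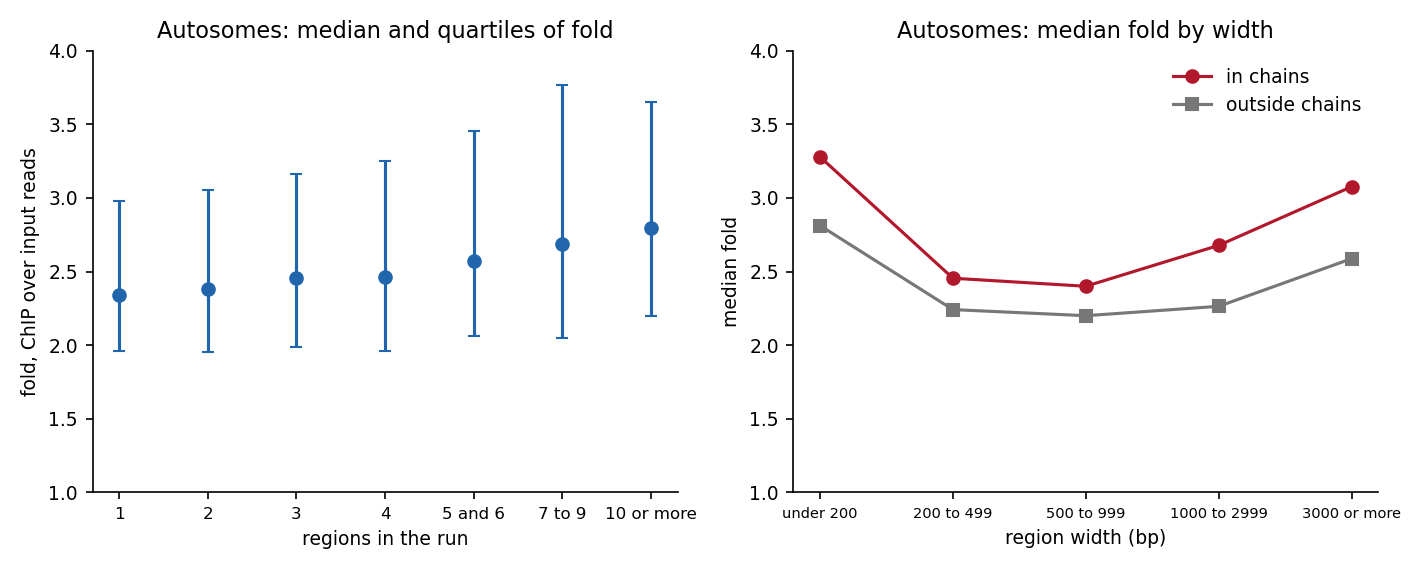
Left, median (points) and quartiles (bars) of the fold of ChIP over input reads for autosomal regions, by the number of regions in the run. Right, median fold of autosomal regions in chains (red) and outside (grey), by region width. The median went from 2.34 in single regions to 2.79 in chains of 10 or more, with overlapping quartiles, and the red line lies above the grey in each width class.

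Neighbours in a chain resembled each other in fold more than in width. Over 1117 pairs of neighbours inside chains, Pearson's r was 0.36 and Spearman's rho 0.36 for log2 fold. For log2 width r was 0.07. In runs of 2 to 4 the r of fold was 0.28 (2292 pairs) and that of width was 0.17. On the autosomes alone the r of fold was 0.34 inside chains and 0.26 in runs of 2 to 4. Likeness in fold did not end at 1000 bp. On the autosomes r was 0.32 for gaps of 200 to 300 bp, 0.27 for 501 to 1000 bp and 0.34 from there to 2 kb. Spearman's rho in the same classes was 0.31, 0.27 and 0.26, without the rise. Pearson's r was 0.14 from 2 to 5 kb, 0.17 from 5 to 10 kb and 0.04 beyond 10 kb. The likeness was weak in size. The median absolute difference in log2 fold between neighbours was 0.40 inside autosomal chains and 0.43 beyond 10 kb. Pairs share libraries and depth, neighbouring pairs share a region, and narrow regions carry large counting error. The highest fold in a chain was a median of 2.33 times the lowest.

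Chains held the largest share of listed regions on chromosome V and the smallest on the X chromosome. Per length of chromosome they were most frequent on I, with 3.41 chains per Mb, against 2.41 on III, 2.23 on II, 2.11 on V, 1.96 on IV and 0.454 on X. Their spans took up 2.67% of chromosome I, 2.26% of III and 2.14% of V. Chromosome V had 64.7 regions per Mb, the lowest density of the autosomes, yet 21.4% of its 1349 regions lay in 44 chains. On chromosome I, with 128.5 regions per Mb, 17.8% did, in 51 chains. The share was 15.8% on IV (34 chains), 15.1% on II (34 chains) and 13.6% on III (33 chains). Chains on V were also longer than on the other autosomes, with a median span of 9071 bp against 6398 bp on I and 7416 to 7936 bp on II, III and IV. Regions on V were wider too, with medians of 742 bp in chains and 593.5 bp outside. Among neighbours on V, 46.6% lay within 1000 bp, against 44.1% on I and 41.2% on IV.

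The X chromosome held 461 of the 8121 listed regions. It had 8 chains with 45 of its regions, or 9.76%, against 16.3% over the whole list. These 45 were 3.40% of all chain regions. That share was 1.80% of 278 regions with a gap limit of 500 bp. It was 0.787% of 635 when regions under 300 bp apart were merged, and the X share of all merged regions is not given here. The X chains lay from 1508459 to 1523559 (8 regions), from 2524828, from 2908588, from 3546451, from 9099819, from 10604848, from 14283786 and from 17519192. The first 4 of these ended before or at 3558246. Pooled folds ran from 1.54 (1.42 to 1.68) in the chain from 14283786 to 1.90 (1.73 to 2.08) in the chain from 17519192. The X chains were well covered, with a median of 81.3%, and their regions had a median width of 1132 bp. X regions outside chains had a median width of 1016 bp, so the large width was not limited to chains. In the X chain of 8, 4388 and 2878 bp wide regions lay 206 bp apart at folds of 1.71 and 1.67. Only its region of 303 bp, with 69 ChIP and 24 input reads, passed a fold of 2.5.

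Chains held a smaller share of the regions in the middle of the chromosomes than in the outer parts. Each span from first to last region was divided into 3 equal parts. In the middle parts 10.8% of 2581 regions lay in 47 chains, and in the outer parts 18.8% of 5540 regions lay in 157 chains. The middle share was lower than the outer share on 6 of 6 chromosomes. On chromosome IV it was 5.82% against 19.8%, and on chromosome V 12.2% against 26.6%. The middle shares rest on few chains, with 22 regions in 4 chains on IV and 59 in 10 on V. On X they were 11 regions in 2 chains. On V the density of regions went the other way, with 69.5 regions per Mb in the middle and 62.3 in the outer parts. On IV the middle had 65.4 regions per Mb and the right part 61.7, yet 18.2% of the regions of the right part were in chains. The difference was smaller on chromosome I, with 14.8% against 19.1%, and smallest on X, with 7.64% against 10.7%. On X the middle share lay above the 7.09% of the right part. With a joining limit of 500 bp the shares were 3.14% in the middle and 3.56% in the outer parts, so the difference was nearly lost. It was 22.3% against 36.1% with a limit of 2 kb.

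Width and fold moved with the place on the chromosome. Regions had a median width of 633 bp and a median fold of 2.16 in the middle parts, and 454 bp and 2.52 in the outer parts. Their part in the difference in chains was not tested. The difference in fold between chain regions and others was present in both places. On the autosomes the medians were 2.29 in chains and 2.18 outside chains in the middle, and 2.74 and 2.54 in the outer parts. Pooled folds of chains had a median of 2.38 in the middle and 2.79 in the outer parts.

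**Figure D5:**
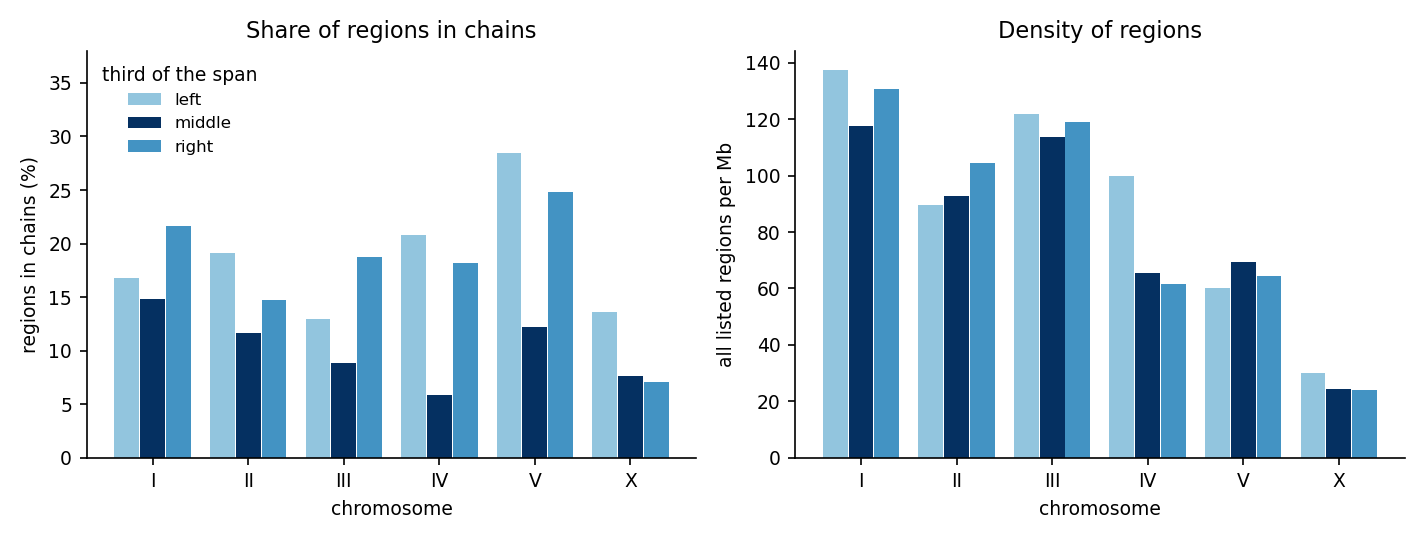
Left, percentage of listed regions that lay in chains, for the left, middle and right part of each chromosome span. Right, listed regions per Mb in the same parts. The middle bar is the lowest of its chromosome on I to V in the left panel, whereas the density in the right panel has no such order on II, IV and V.

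A few chains lay close to another chain. The distance between neighbouring chains had a median of 280.4 kb, and 29 of 198 distances were under 50 kb. In 8 cases the next chain began less than 2500 bp away. The shortest such distance, 1180 bp, lay before the chain on chromosome III from 1074231 to 1079468, which had a pooled fold of 4.68. A distance of 1235 bp lay before the chain on chromosome III from 2956874, which had a pooled fold of 2.82. A distance of 1236 bp lay before the chain on chromosome V from 18601112 to 18614853, which had 8 regions and a pooled fold of 4.58. In the other cases the later chain had pooled folds of 2.08, 2.54, 2.59, 2.92 and 4.67. The pairs named here were picked after their values were seen. Chromosome I from 14 to 15 Mb held 7 chains with 49 of its 171 regions. On chromosome V, 6 chains between 18 and 19 Mb held 42 of only 95 regions. On chromosome IV, 6 chains between 3 and 4 Mb held 42 of 101. No chain began in 20 of the 102 bins of 1 Mb, and 11 of these were on the X chromosome. The longest stretch without a chain was 5542 kb on the X chromosome, from 3558246 to 9099819, and it held 130 regions and no run of 4. On chromosome IV, 2789 kb from 8781615 to 11570559 had no chain while holding 170 regions.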

How the data were processed

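Per the file headers, the authors deposited 1 combined list on WormBase build WS180, and its lines name PeakSeq. The list names no library, and the 2 ChIP and 2 input libraries are known from the sample labels. The value deposited for each region is a q-value, that is a p-value corrected for multiple tests. First and last bases are given 1-based as in the file. The version and settings of PeakSeq, the mapper and the way of combining replicates were not given in the sources used here.

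Regions were sorted by chromosome and first base and chained where the gap was 1000 bp or less. The steps in q between 2665 pairs of neighbouring lines of equal p put the first line at rank 48, so 47 stronger ranks were not analysed here. An absent region could join runs that are listed apart. The product of q and rank over 18572 tested regions was matched to exact binomial tails with probability 0.5. It gave 1 pair of read numbers, within 1e-09 in ln p, for 8116 of 8121 regions (99.9%) and 1322 of the 1324 chain regions. Pooled folds of chains leave out the other 2. Intervals of folds are 95% Clopper-Pearson intervals, cover counting error only, and are not exact if the input was scaled. Steps were tested on simulated data.

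Chains are named here if they are among the 10 with the most regions (ties by longer span, which leaves out 2 of the 7 chains of 11), the 5 longest, the 5 most or least covered, the 5 with the smallest q-values, or lead their chromosome in number. Regions are named by q, width or lower limit of fold (5 each). Other items were picked after their values were seen. The members and lists were chosen with earlier results of these data known. Alternatives were other gap limits and sizes, subsets of the list, merging and the autosomes alone. Python 3.11.15, pandas 2.3.3 and scipy 1.17.1 were used.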

Additional observations from a re-analysis of the deposited data

Results flagged for a closer look

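The median pooled fold of the chains on the X chromosome was 1.793, from 8 chains, and stood apart from the medians of 2.66 to 2.79 on the 5 autosomes. Over the 6 chromosomes, its distance to the nearest autosome was 0.869 of the whole range and above Dixon's critical value for 6 values. Chromosomes are not replicate samples, and 5 measures were compared in this way. Chance alone passes the limit in about 1 in 20 groups. The number of chains per Mb on X, 0.454, was the lowest of the 6 but did not pass the limit, at 0.51 of the range. Regions on X outside chains had a median fold of 1.82, so the low level was not limited to chains.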

How the results depend on the processing

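Numbers below are given in the order of chains, regions in chains, median covered share, median width, ratio of median widths (chains to others), ratio of median folds, share of chain regions on X, and share in chains in middle minus outer parts in percentage points. The values reported were 204, 1324, 70.31%, 600.5 bp, 1.223, 1.114, 3.399% and -7.996. A gap limit of 500 bp gave 48, 278, 77.91%, 675 bp, 1.345, 1.184, 1.799% and -0.4176. A limit of 2 kb gave 358, 2575, 59.71%, 526 bp, 1.058, 1.105, 2.33% and -13.77. The 4061 strongest regions alone gave 48, 273, 78.85%, 893 bp, 0.977, 1.171, 1.832% and -6.612, so chain regions were not wider than the others there. The cause was not tested. A minimum of 4 regions gave 370 chains, 1988 regions and an X share of 2.666%. A minimum of 6 gave 123 chains, 919 regions, a width ratio of 1.119 and an X share of 2.176%. Merging regions under 300 bp apart gave 107 chains, 635 merged regions, a median width of 680 bp and an X share of 0.7874%.

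Of the 63 alternative values, 31 kept their direction and were counted as little changed. Counts differed by under 1.5 times, and other values lay inside the 95% interval of the reported value over regions or chains. Among these 31 are the fold ratio of 1.105 with a limit of 2 kb and the X share of 2.666% with a minimum of 4. The 919 regions with a minimum of 6, and all values without regions under 20 bp, are among them too. Intervals over regions take regions as independent, although those of a chain enter or leave together, and hold the compared group fixed. They only sort the alternatives and are not an error of the values. The autosomes alone, and the alternatives for middle minus outer parts, were chosen after seeing the data. The ratio of folds stayed above 1 in each alternative. No paired analysis was possible because replicates are combined in the deposited list, which also kept any replicate from being left out. Chain regions under 200 bp had medians of only 40 ChIP and 12 input reads, so their folds have wide intervals.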
